A study of Bos taurus with 3 samples.

Results

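The Notch pathway genes described here are 3 receptors (NOTCH1, NOTCH2 and NOTCH3), 3 ligands (JAG1, JAG2 and DLL1), 3 target genes (HES1, HEY1 and HEY2) and the DNA-binding factor RBPJ. They were chosen by gene symbol for their place in the pathway, and 9 of the 10 were found among the 31903 genes of the count table. JAG2 had no row and was not analysed here. RNA was measured by sequencing in bovine (Bos taurus) fetal fibroblasts of the culture named BFF116, whose nuclei are placed into oocytes to make cloned embryos. All 3 libraries form 1 group, each was made from 70000 cells starved of serum for 48 h, and no unstarved cells, other cell line or perturbation of Notch was measured. The labels give no sex, age of the fetus or passage, and they do not say whether the 3 biological replicates were separate cultures, and p-values therefore measure only the spread between these samples, which may be technical.

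Notch receptors are transmembrane proteins that bind Delta or Jagged ligands on a neighbouring cell. Binding exposes the receptor to an ADAM protease and then to gamma-secretase, and the released intracellular domain enters the nucleus, where with RBPJ and a Mastermind coactivator it switches on genes such as those of the HES and HEY repressors. Without the intracellular domain RBPJ recruits corepressors to the same genes. In mesenchymal cells the pathway is known for its roles in fibroblast activation, vessel wall cells and the control of differentiation. The libraries measure RNA only, so they show which components were transcribed and not whether receptors were cleaved.

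Reads assigned to genes numbered 4842331 to 8608350 per library. Levels are given as CPM, which is the reads of a gene per 1e6 gene reads, after TMM scaling for composition, and as the mean ± SD of the 3 libraries (n = 3). CPM was not divided by transcript length, because no lengths were used here, so a ratio of 2 genes below is a ratio of reads that also carries their lengths. Comparisons of 1 gene between libraries are free of this limit. In RNA from whole cultures, fewer expressing cells and less RNA per cell cannot be told apart. The culture was checked against marker lists. Fibroblast markers reached 1 CPM in every library for 9 of 10 genes, led by COL3A1 and COL1A2, with TCF21 the exception at 1, 0 and 7 reads. Epithelial markers reached that level for 0 of 6 genes and skeletal muscle progenitor markers for 0 of 4.

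NOTCH2 carried nearly all receptor reads in these fibroblasts, with NOTCH1 and NOTCH3 far below it, JAG1 had the most reads of the canonical ligands with a row, and RBPJ was expressed at a steady level. Of the target genes HES1 was read in every library, HEY1 was near the limit of detection and HEY2 had 0 reads. A level of 1 CPM in every library was reached by 7 of the 9 members with a row. It was reached by 34.6% of all genes in the table and by 61.2% of the genes with a read. Among the members the exceptions were HEY1 and HEY2. This threshold corresponds to 8.42, 4.96 and 7.11 reads in replicates 1 to 3.

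**Figure D1:**
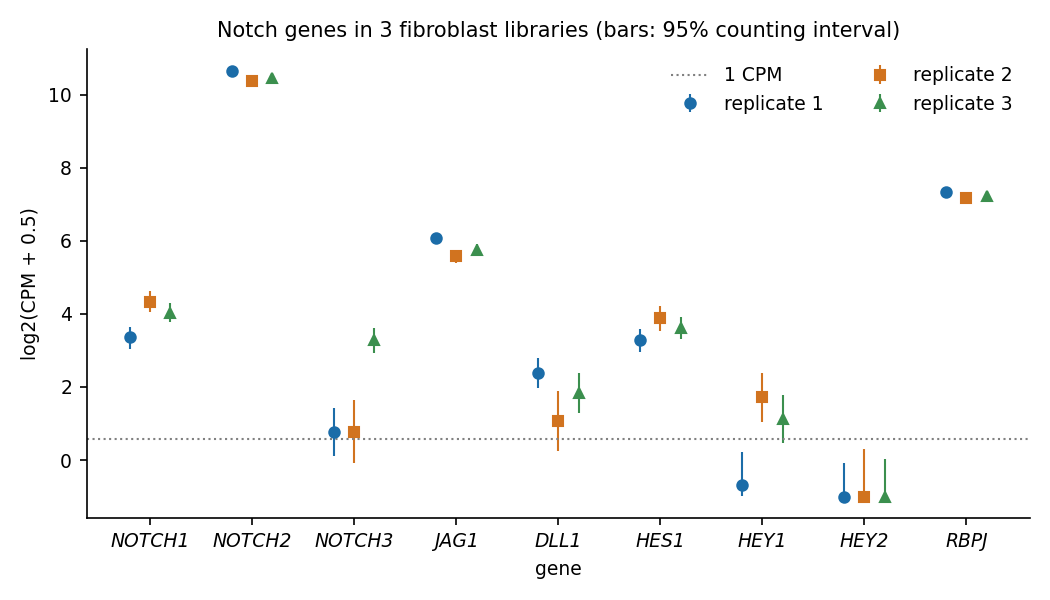
Level of each Notch gene in each library as log2(CPM + 0.5) on the vertical axis, with genes on the horizontal axis, symbols for replicates 1 to 3 and bars for the 95% Poisson interval of the count. NOTCH2 lies near the top in all 3 libraries, NOTCH3 is higher in replicate 3 (66 reads) than in replicates 1 and 2 (10 and 6 reads), and HEY2 is at 0 reads throughout.

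NOTCH2, the receptor with roles in bone, kidney and vascular development, had 13429, 6653 and 9952 reads in replicates 1 to 3. These correspond to 1595, 1341 and 1400.3 CPM, and the mean was 1445 ± 133. The 3 libraries lay close together, with replicate 1 the highest. The 95% Poisson interval of replicate 1 (1568 to 1622 CPM) covers counting error only. It did not overlap those of replicate 2 (1309 to 1373) and replicate 3 (1373 to 1428). By total reads NOTCH2 ranked 68 among the 18039 genes with a read. The coefficient of variation (CV) between libraries was 9.21%, below the 20.1% that the trend of biological variation gives for genes of that level. The trend leaves out counting error, which the CV includes. Over all genes tested the median CV was 22.4%, against a common biological CV of 27.3%. The share of genes below the trend was not computed.

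NOTCH1, the receptor best known from T cells, endothelium and somite formation, had 82, 98 and 113 reads, or 9.74, 19.7 and 15.9 CPM (mean 15.1 ± 5.05). Replicate 1 was the lowest, and its 95% Poisson interval, which covers counting error only, reached up to 12.1 CPM, below the intervals of replicate 2 (16.0 to 24.1) and replicate 3 (13.1 to 19.1). The CV of 33.4% stood beside a trend value of 29.6%. Its spread did not pass as larger than the trend (unadjusted p = 0.317, adjusted p = 0.9999 by the edgeR-based test of extra variation described in the processing).

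NOTCH3, a receptor of pericytes and smooth muscle cells, was the member with the largest CV, 119.9%. It had 10, 6 and 66 reads, or 1.19, 1.21 and 9.29 CPM. Replicate 3 stood apart, with a counting interval of 7.18 to 11.8 CPM against at most 2.63 CPM in the other libraries. The mean of 3.89 ± 4.67 therefore rests on 1 library, and it was 1.20 without replicate 3. With 6 reads in replicate 2 NOTCH3 was left out of the test on genes with 10 or more reads in every library. In the same edgeR-based test without that filter, its extra variation had an unadjusted p of 0.0022 and an adjusted p of 0.534, which does not pass. That fit called 2 of 18039 genes, or 0.0111%.

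NOTCH2 took 99.3, 98.5 and 98.2% of the reads of the 3 receptors in replicates 1 to 3 (98.7% ± 0.573), NOTCH1 took 1.06% ± 0.425 and NOTCH3 0.271% ± 0.329. The ratio of NOTCH2 to NOTCH1 reads was 164, 67.9 and 88.1, and over all libraries 103 (exact 95% binomial interval 91.4 to 115). That interval covers counting error only and not the spread between libraries, and the ratio of each single library lies outside it. NOTCH2 reads exceeded NOTCH3 reads by 1343, 1109 and 151 times. NOTCH1 reads exceeded NOTCH3 reads in every library, by 8.20, 16.3 and 1.71 times. The mean log2 ratios were 6.58 ± 0.63 for NOTCH2 over NOTCH1, 8.89 ± 1.50 for NOTCH2 over NOTCH3 and 2.30 ± 1.43 for NOTCH1 over NOTCH3, each above 0 in 3 of 3 libraries. Over all libraries the last 2 ratios of reads were 366 and 3.57, and without replicate 3 they were 1255 and 11.3. No p is given for these ratios, since an exact sign-flip permutation test cannot go below 0.25 with 3 libraries. NOTCH4, the fourth receptor, had no row.

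JAG1, a Jagged ligand widely expressed in mesenchyme, had 563, 235 and 382 reads, or 66.9, 47.4 and 53.8 CPM (mean 56.0 ± 9.95). Replicate 1 was the highest, and its counting interval did not overlap those of the other libraries. The CV of 17.8% was below the trend value of 23.9%. JAG1 reads were 0.0419, 0.0353 and 0.0384 of the NOTCH2 reads, and the log2 ratio of -4.69 ± 0.12 had the smallest SD of the 6 member pairs compared.

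DLL1, a Delta ligand of somites and neural progenitors, had 40, 8 and 22 reads, or 4.75, 1.61 and 3.10 CPM (mean 3.15 ± 1.57). Replicate 1 was highest and replicate 2 lowest, and the counting intervals of these libraries did not overlap, while that of replicate 3 (1.94 to 4.69) overlapped both. JAG1 reads exceeded DLL1 reads in 3 of 3 libraries, by 14.1, 29.4 and 17.4 times, and by 16.9 over all libraries (exact 95% binomial interval 13.2 to 21.8). That interval covers counting error only, and the ratio of replicate 2 lies outside it. DLL3 and DLL4, the other Delta ligands of the list, had 0 reads in every library, as did 43.5% of all genes in the table. A count of 0 allows up to 3 reads per library, which is 0.356, 0.605 and 0.422 CPM in replicates 1 to 3, if reads could be assigned to the gene at all. Of the genes that flank DLL4 in the RefSeq table of assembly ARS-UCD2.0, VPS18 had 33, 23 and 36 reads and CHAC1 175, 204 and 297, while RHOV had 1, 0 and 0. Of those that flank DLL3, TIMM50 had 94, 70 and 158 reads and EID2 53, 19 and 18, and SELENOV had no row. Reads on a flanking gene do not show that reads could be assigned to DLL3 or DLL4 themselves, which was not tested.

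RBPJ, the DNA-binding protein through which all receptors act, had 1355, 721 and 1062 reads, or 161, 145 and 149 CPM (mean 152 ± 8.11). The 3 libraries were nearly level, and all 3 counting intervals overlapped. Its CV of 5.34% was the lowest of the 8 members with a read, against 22.6% from the trend and a median of 22.4% over the 10434 genes tested. Its paralog RBPJL, which does not bind Notch, had 0, 0 and 1 reads.

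HES1, a helix-loop-helix repressor and the most general Notch target, had 78, 71 and 84 reads, or 9.27, 14.3 and 11.8 CPM (mean 11.8 ± 2.52). All 3 counting intervals overlapped, and the CV of 21.4% was below the trend value of 31.2%. HES1 is also induced by other signals, so its RNA is not specific for Notch. The median of all genes at 1 CPM or more in every library was 20.5 CPM.

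HEY1, a repressor of the related HEY family known from vessels and heart, had 1, 14 and 12 reads, or 0.119, 2.82 and 1.69 CPM (mean 1.54 ± 1.36). Replicate 1 was the lowest, with a counting interval of up to 0.662 CPM, which did not reach those of replicate 2 (1.54 to 4.73) and replicate 3 (0.872 to 2.95). The mean rests on 27 reads in all and was 0.893 without replicate 2. In the edgeR-based test without the count filter the unadjusted p was 0.206 and the adjusted p 0.993. HES1 reads exceeded HEY1 reads in 3 of 3 libraries, by 78, 5.07 and 7 times, with a mean log2 ratio of 2.88 ± 0.97.

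HEY2 had 0 reads in every library, and the limit given for DLL4 holds for it too. Of its flanking genes in the RefSeq table, NCOA7 (1140, 523 and 762), HINT3 (46, 31 and 54) and HDDC2 (243, 132 and 173) had reads, and TPD52L1 had 2, 3 and 13. Whether reads could be assigned to HEY2 itself was not tested. The list of target genes held 10 genes with a row, and 1 of them, HES1, reached 1 CPM in every library. That count was 2 without replicate 1, when HEY1 passed too, and 2 without replicate 3, when HES2 passed. HES2 had 15, 10 and 2 reads, HES3 2, 2 and 0, and HEYL 0, 0 and 3. HES4, HES5, HES6 and HES7 had 0 reads, as HEY2 did, and these and HEYL were named after their values were seen. Flanking genes of some of them were also at or near 0, among them PERM1 (0 reads) and PLEKHN1 (0, 1 and 1) beside HES4 and ALOXE3 (0 reads) beside HES7. Other flanking genes had reads, among them AGRN (35, 11 and 47) beside HES4 and VAMP2 (47, 35 and 72) beside HES7. PANK4 (68, 26 and 57) beside HES5 and ILKAP (92, 79 and 86) beside HES6 had reads too. Whether reads could be assigned to the HES genes themselves was not tested. The median of the target list was 0.0704 CPM, against 0.134 CPM over all genes in the table.

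The rest of the pathway was read from a list of 94 genes in 10 roles, of which 87 had a row. Of these, 63 reached 1 CPM in every library, against the same 34.6% of all genes and 61.2% of the genes with a read. The median level of the 87 genes with a row was 13.8 CPM, against 0.134 CPM over all genes in the table. The share at this level differed by role, from 1 of 10 target genes to 6 of 6 genes of gamma-secretase, and these counts were not tested against each other.

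**Figure D2:**
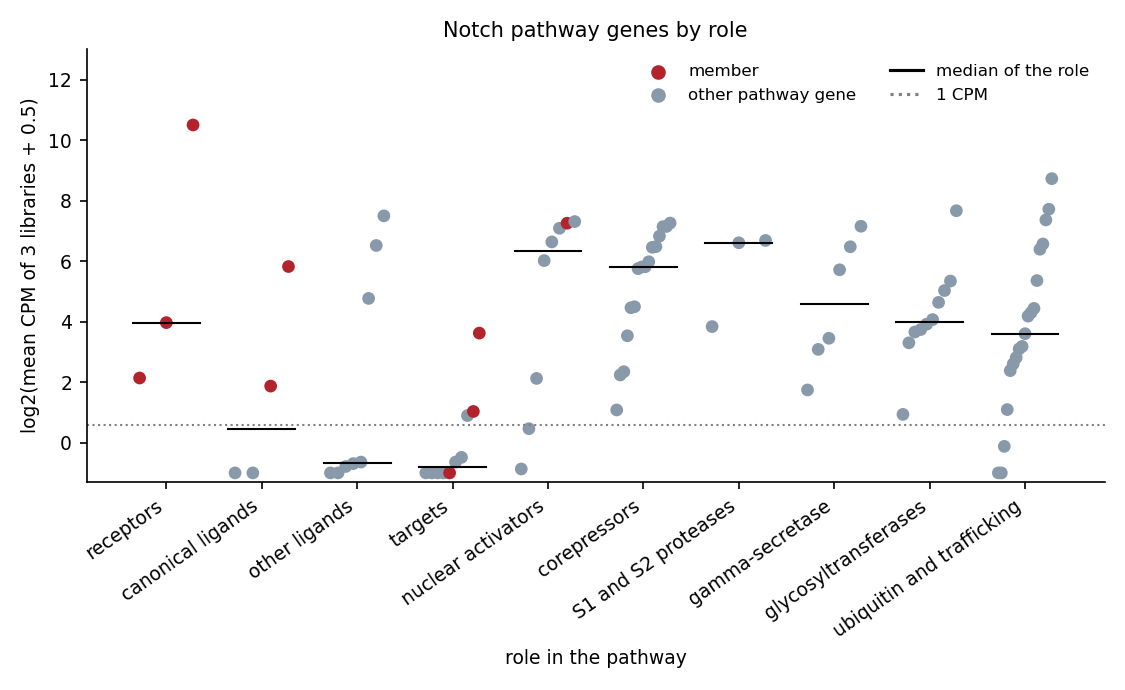
Mean CPM of the 3 libraries as log2(mean CPM + 0.5) on the vertical axis for the 87 pathway genes with a row, grouped by role on the horizontal axis, with members in red, other genes in grey, black lines at the median of each role and a dotted line at 1 CPM. Target genes and ligands hold many genes at or near 0 reads, while proteases, gamma-secretase and nuclear factors lie above the dotted line but for RBPJL and KAT2A.

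The genes that cut the receptors were all read. FURIN, which cleaves the receptor during its maturation, stood at 13.8 ± 2.42, and the sheddases ADAM10 and ADAM17 at 96.9 ± 17.8 and 102 ± 6.02. All 6 of 6 genes of the gamma-secretase list reached 1 CPM in every library. PSENEN stood at 142 ± 14.2, NCSTN, the nicastrin subunit, at 88.4 ± 22.4 and APH1A at 10.4 ± 2.178. The summed level of the list was 262, 299 and 349 CPM in replicates 1 to 3, lowest in replicate 1.

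The enzymes that place sugars on the receptor's extracellular repeats reached 1 CPM in every library in 9 of 10 cases. GXYLT2, a xylosyltransferase, stood at 202 ± 61.1, B4GALT1 at 40.0 ± 0.178, RFNG, the radical fringe, at 32.1 ± 6.71 and EOGT at 24.3 ± 7.53. The exception was MFNG, the manic fringe, with 0, 21 and 0 reads, all of them in replicate 2. Its extra variation did not pass in the edgeR-based test without the count filter (adjusted p = 0.646).

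The genes that turn over or sort receptors and ligands had 15 of 19 at this level. NEDD4 stood at 422 ± 129 and ITCH at 209 ± 37.7, both ubiquitin ligases with many substrates besides Notch. MIB1, the ligase that ligands need for their endocytosis, stood at 164 ± 18.6, and the kinase AAK1 at 94.2 ± 17.0. NEURL1 and DTX1 had 0 reads in every library, NEURL1B had 6, 2 and 1, and DTX2 had 7, 9 and 16.

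In the nucleus, the list that holds RBPJ, RBPJL and the coactivators reached 1 CPM in every library for 6 of 8 genes. Corepressors did so for 15 of 16. CREBBP, the histone acetyltransferase, stood at 158 ± 8.48, SNW1 at 135 ± 19.4 and the Mastermind gene MAML2 at 98.7 ± 9.57. KAT2A with 13, 4 and 2 reads and RBPJL were below the level. Of the corepressors SPEN, which binds RBPJ, stood at 152 ± 9.97, HDAC1 at 141 ± 9.39 and NCOR1 at 140.3 ± 10.1, and CTBP1 with 6, 17 and 5 reads was the 1 gene below. HDAC2 stood at 173, 123 and 41.9 CPM in replicates 1 to 3, lowest in replicate 3. MAML1, EP300, TLE2 and the target NRARP had no row.

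Secreted or membrane proteins described as further Notch ligands or binders had 3 of 8 genes at this level. These were NOV, a matricellular protein of the CCN family (180 ± 43.1), and the microfibril proteins MFAP5 (91.0 ± 6.96) and MFAP2 (26.7 ± 10.3). All 3 have functions in the matrix besides Notch. DLK1 and EGFL7 had 0 reads in every library (BEGAIN and WDR25, which flank DLK1, had 0, 0 and 1 and 2, 0 and 9), DLK2 had 0, 0 and 3, DNER 2, 0 and 0 and CNTN1 3, 0 and 0.

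Spread between libraries was tested for each gene with 10 or more reads in every library. None of the 5 members tested (NOTCH1, NOTCH2, JAG1, HES1 and RBPJ) and none of the 61 pathway genes tested varied more than the edgeR trend at an adjusted p under 0.05, against 2 of 10434 genes, or 0.0192%. At an unadjusted p under 0.05 there were 0 of the 5 members, 1 of the 61 pathway genes and 5.24% of all genes. The 1 gene was HDAC2, with a CV of 58.8%, an unadjusted p of 0.00175 and an adjusted p of 0.285. The median CV was 18.4% for the 61 pathway genes and 22.4% for all genes tested. With so few calls in the whole table, a gene not called is not thereby shown to be constant.

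**Figure D3:**
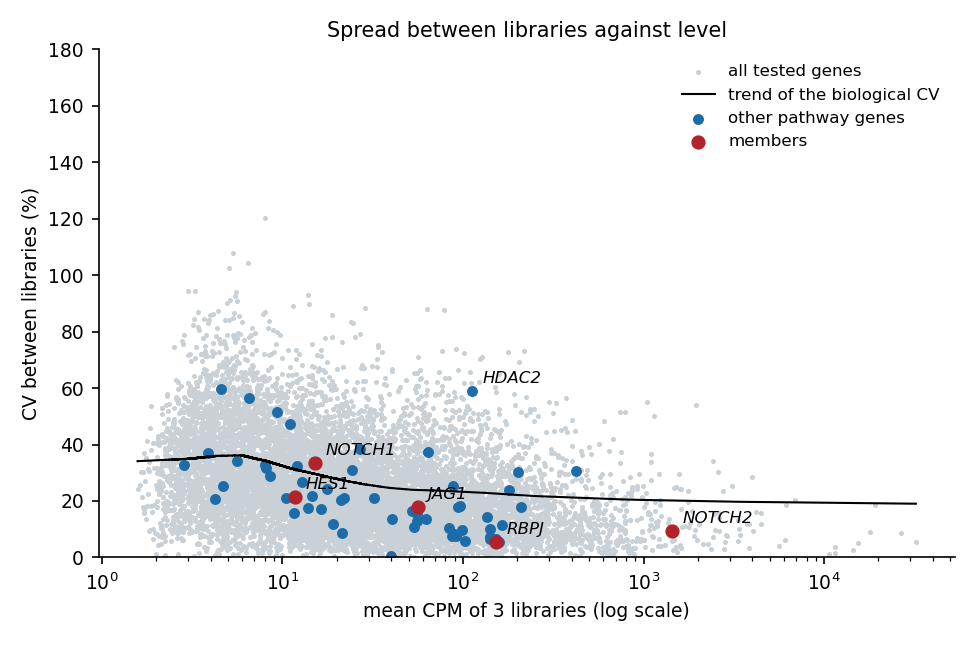
Coefficient of variation between the 3 libraries in percent (vertical axis) against mean CPM (horizontal log axis) for the 10434 genes tested, with the edgeR trend as a line, members in red and other pathway genes in blue. NOTCH2, JAG1, HES1 and RBPJ lie below the line, NOTCH1 lies just above it (33.4% against 29.6%) and HDAC2 lies at 58.8%. The points include counting error and the line does not, so a place below the line does not set a gene apart.

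The libraries did not order the members alike. NOTCH2, JAG1, DLL1 and RBPJ were highest in replicate 1 and lowest in replicate 2, whereas NOTCH1, HES1 and HEY1 were lowest in replicate 1 and highest in replicate 2. NOTCH3 followed neither order and was higher in replicate 3 than in replicate 1 by 2.54 on the log2(CPM + 0.5) scale. Apart from NOTCH3, the counting intervals of replicates 2 and 3 overlapped in every member, and all 3 intervals overlapped for HES1 and RBPJ. The share of all genes with such overlaps was not computed, so these overlaps do not set the members apart. Over the whole table, chi-square per degree of freedom was 17.1 for replicates 1 and 2. It was 40.4 for replicates 1 and 3 and 11.3 for replicates 2 and 3. The orders of the members were not tested. Replicate 1 was the highest for 39.3% of all tested genes and for 39.3% of the 61 pathway genes. For replicate 2 the shares were 24.4% and 29.5%.

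Markers of mural cells, the pericytes and smooth muscle cells in which NOTCH3 is best known, are given beside its values. Of the 10 genes of that list 4 reached 1 CPM in every library, and each was highest in replicate 3, as were 36.3% of all genes tested. CNN1, a calponin of contractile cells, stood at 40.4, 68.3 and 94.4 CPM in replicates 1 to 3, PDGFRB at 38.1, 51.4 and 67.4, CSPG4 at 7.48, 11.9 and 14.9, and ACTA2, the smooth muscle actin that fibroblasts in culture also express, at 4024, 3649 and 4416. The summed level of the list was 4115, 3781 and 4593 CPM, nearly all of it ACTA2. The defining pericyte and muscle genes RGS5, KCNJ8, MCAM and DES had 0 reads in every library, ABCC9 had 1, 0 and 0, and MYH11 had 41, 2 and 7, highest in replicate 1. The part of these markers in the NOTCH3 values was not tested.

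**Figure D4:**
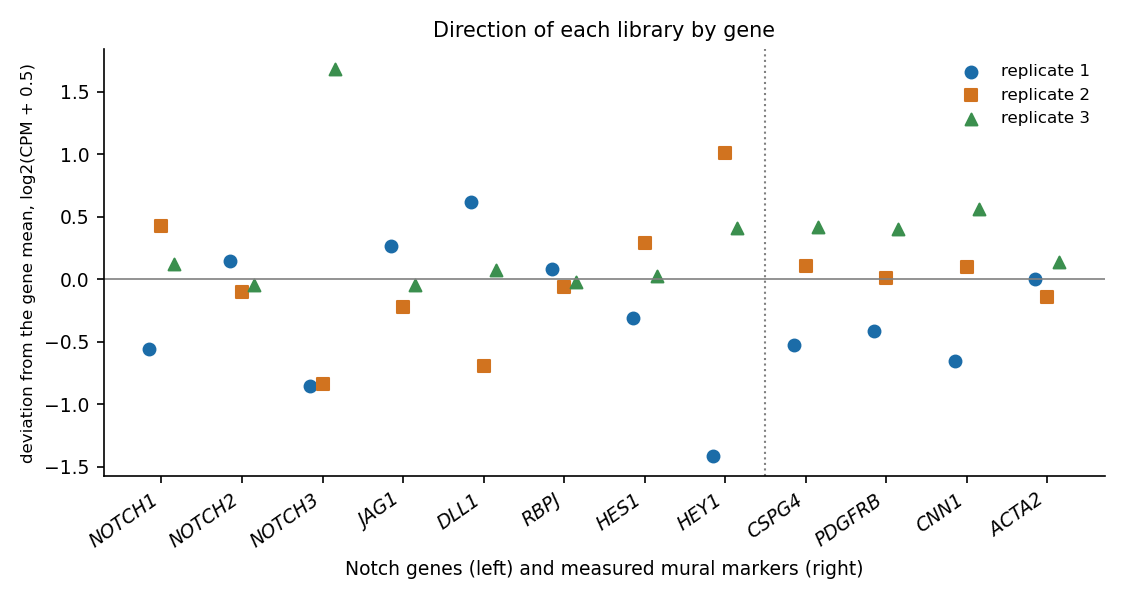
Deviation of each library from the gene's mean on the log2(CPM + 0.5) scale (vertical axis) for the 8 Notch genes with a read and the 4 mural markers at 1 CPM or more (horizontal axis), with 1 symbol per replicate. NOTCH3 rises above its mean in replicate 3 alone, and the 4 mural markers are also highest there by smaller amounts. The mural marker MYH11, which was highest in replicate 1 and below 1 CPM in replicates 2 and 3, is not shown.

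Endothelial markers were read beside DLL4 and NOTCH1, which vessels express. Of 11 endothelial genes with a row, 3 reached 1 CPM in every library, and 7 had 0 reads, among them KDR, TIE1, CLDN5 and EMCN. ERG stood at 6.89, 3.83 and 18.3 CPM, TEK at 7.72, 3.02 and 7.04 and PECAM1 at 4.51, 2.02 and 1.41. The summed level of the list was 19.1, 9.47 and 27.3 CPM in replicates 1 to 3. Neural markers, given beside DLL1, had 5 of 8 genes at this level, led by NES at 91.0 ± 25.3, an intermediate filament gene that cultured mesenchymal cells also express, and STMN2 at 10.6 ± 4.61. SOX2 had 0, 0 and 2 reads. The summed neural level was 94.0, 99.1 and 146 CPM, of which NES alone made up 71.9, 81.4 and 120. The part of endothelial or neural markers in the NOTCH1, DLL4 and DLL1 values was not tested. Leukocyte markers had 2 of 6 at this level, against 34.6% of all genes in the table, and PTPRC, which defines leukocytes, had 0 reads.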

How the data were processed

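Per the labels' protocols, RNA of 3 libraries was amplified as cDNA by a single-primer isothermal method, sequenced as single reads of 100 bases and not tagged with molecular identifiers. The submitters' processing notes name HTSeq 0.6.1, TopHat2 2.0.10 and bcl2fastq 2.18.0.12. Neither the genome build and annotation nor the strand setting is given in the sources used here, so reads of overlapping or antisense genes cannot be told apart. The authors deposited raw read counts, as whole numbers for each gene. The 5 summary rows stayed out of library sizes. HTSeq assigned 58.9 to 62.0% of reads to no counted feature, which does not show where they lay. A further 7.52 to 7.99% aligned to several places. Such reads are missing from the counts, and RefSeq places a pseudogene within each of the spans of NOTCH2 and JAG1.

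CPM was computed with edgeR 4.0.16 in R 4.3.3 (TMM factors 0.978, 1.02 and 0.998), and log2 values use CPM + 0.5. Extra variation was tested where every library had at least 10 counts, with a negative binomial Pearson statistic on the edgeR trended dispersion against chi-square with 2 degrees of freedom and Benjamini-Hochberg adjustment over all 10434 genes; it was tested on simulated data. The common biological CV was 27.3%, and libraries differed by more than counting noise (chi-square per degree of freedom of 11.3 or more for each pair). Intervals are exact, at 95%, and cover counting error only.

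Members and lists were chosen with earlier results of these data known. Named genes are the members, the 4 highest of each list by CPM and those below 1 CPM in some library where these number 6 or fewer. A few genes that this rule names are not reported here. Of 94 pathway symbols 87 had a row. The planned scaling by transcript or coding length and the promoter search were not run, since no lengths or sequences were used here, and ratios to JAG2 and HEY2 were not taken. With 3 libraries no gene of like pattern was named.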

Additional observations from a re-analysis of the deposited data

How the results depend on the processing

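The number of genes more variable than the trend was 2, and 5 with DESeq2 size factors; leaving out 1 library at a time gave 0 to 6, with 6 without replicate 1 and 0 without replicate 2 or replicate 3. In each of these settings the number among pathway genes was 0. The number of members at 1 CPM or more was 7 and ranged from 5 (at 2 CPM, or at 10 counts in every library) to 8 (without replicate 1, when HEY1 passed), and that of pathway genes from 59 to 65 around 63. Canonical ligands at this level numbered 2, and 1 at 2 CPM or at 10 counts in every library, when DLL1 no longer passed. No paired analysis was possible because the series has 1 group. Depth limits HEY1, HEY2, DLL1 and NOTCH3 most, since 1 read is worth 0.119 to 0.202 CPM.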
